A study of Mus musculus with 9 samples.

Results

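Immediate early genes are the genes that a cell switches on first after a signal, without needing new protein synthesis. The 10 genes described here are Klf2, Klf4, Klf6, Klf10, Egr1, Egr2, Egr3, Ier2, Ier3 and Zfp36, taken by symbol from a table of 55487 genes counted in 9 RNA libraries. All 10 were found, and 8 of them passed the filter on low counts and were tested. Egr2 and Egr3 did not pass it.

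All libraries come from the mouse melanoma line B16F10, whose cells were treated for 6 h. In the combined group the medium held interferon gamma (IFNγ), a cytokine of T cells and natural killer cells, at 50 ng/mL together with FK866 at 50 nM, which blocks NAMPT, the enzyme that sets the pace of NAD recycling from nicotinamide. A further group received IFNγ at 50 ng/mL alone, and the media group received neither agent. Each group has 3 libraries, titled Control with the number 3, 4 or 5, and the labels state neither what the number stands for nor whether the libraries are separate cultures. P-values therefore measure the spread between these libraries, which may be technical. No group received FK866 alone, and the treatment text names mouse or human IFNγ while the catalogue item it gives is mouse IFNγ.

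KLF and EGR proteins are zinc finger transcription factors that bind GC-rich DNA. EGR genes are switched on by serum response factor (SRF) at CArG boxes in response to growth factors and ERK signalling, and their activity is held back by NAB corepressors. ZFP36, also called tristetraprolin, is an RNA-binding protein that joins AU-rich stretches of mRNA and brings deadenylases and decapping enzymes to them, which limits cytokine output; IER2 and IER3 are small proteins induced by growth factors and stress. Many genes induced by IFNγ carry the GAS element in their promoters, a palindrome with the letters TTCNNNGAA.

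The DNA in front of the genes is shown for a gene that rose strongly (Zfp36), a gene with a slightly higher level (Klf6) and a gene with a lower level after IFNγ (Klf4). The sequences are the 250 bases before the RefSeq start site (build GRCm38.p6), written 5′ to 3′ along the gene's own strand. Capitals mark matches to the motifs named after the sequences.
Zfp36 promoter, chr7:28379229-28379478, minus strand: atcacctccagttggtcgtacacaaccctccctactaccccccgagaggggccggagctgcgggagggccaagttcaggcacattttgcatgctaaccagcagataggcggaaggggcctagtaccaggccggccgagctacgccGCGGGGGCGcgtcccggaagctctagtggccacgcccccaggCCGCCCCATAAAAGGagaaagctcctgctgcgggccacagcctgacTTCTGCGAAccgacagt
Klf6 promoter, chr13:5861239-5861488, plus strand: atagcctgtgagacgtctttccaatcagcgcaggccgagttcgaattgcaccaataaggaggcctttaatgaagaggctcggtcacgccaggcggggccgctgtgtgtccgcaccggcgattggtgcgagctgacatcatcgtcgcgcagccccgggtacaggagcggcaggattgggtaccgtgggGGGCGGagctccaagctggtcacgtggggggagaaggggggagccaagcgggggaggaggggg
Klf4 promoter, chr4:55532476-55532725, minus strand: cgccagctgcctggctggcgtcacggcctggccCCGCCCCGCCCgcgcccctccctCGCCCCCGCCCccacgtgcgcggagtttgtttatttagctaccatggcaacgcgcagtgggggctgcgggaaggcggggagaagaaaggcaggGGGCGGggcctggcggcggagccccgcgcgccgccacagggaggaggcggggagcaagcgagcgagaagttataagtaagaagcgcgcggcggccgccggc

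The search covered both strands for the GAS element, the EGR motifs GCGTGGGCG and GCGGGGGCG, the CRE motif TGACGTCA, the AP-1 motif TGACTCA, the GC box GGGCGG and the CArG box. RefSeq promoters were given for 6 members (10 start sites), and Klf10, Egr1, Egr3 and Ier2 had no entry. Among these 6 members, Zfp36 was the member with a GAS match, TTCTGCGAA, whose first base lies 17 bases before the start. GAS letters were present in 7.02% of all 32851 promoters of the same length. The Zfp36 window also held a CArG box (CCATAAAAGG) 58 bases before the start, and the EGR motif GCGGGGGCG at 105 bases. That CArG box shares a base with the GC box beside it, and this RefSeq window lies inside the longer GENCODE M21 model of Zfp36. CArG boxes were in 1.47% and this EGR motif in 2.57% of all promoters. Klf2 and Klf4 also held GCGGGGGCG, in both cases overlapping a GC box. Egr2 had a CArG box at 4 of its 5 start sites. Start site 2 held CCTTTTTTGG, while start sites 3, 4 and 5 have overlapping windows that hold the same CCATATATGG. Klf6 and Ier3 held a GC box only, a motif found in 32.7% of promoters. No member window held GCGTGGGCG, the CRE or the AP-1 letters, which occurred in 0.536%, 1.55% and 4.46% of promoters. A match describes these letters and is not a mapped binding site.

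At the other end of the mRNA, the letters TATTTAT are the core that ZFP36 proteins are known to bind. Sites are shown because Zfp36 was the member with the largest response, and each is a stretch of 30 bases of the annotated 3′ UTR in GENCODE M21 (GRCm38), with TATTTAT in capitals and 1 site window per gene.
Klf2 3′ UTR: gactgcTATTTATtggaccttaggacagag
Klf6 3′ UTR: gtctctTATTTATgccttgaggactatttc
Klf10 3′ UTR: tcttttTATTTATaggagtttttcaggatg
Ier3 3′ UTR: aattaaTATTTATgTATTTATgtatatcct
Zfp36 3′ UTR: gcccttTATTTATgacgacttTATTTATtg

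Ier3 held 4 such motifs in a 3′ UTR of 613 bases and Zfp36 held 3 in 774 bases. Klf6 held 2, and Klf2 and Klf10 held 1 each. The letters were absent from the 3′ UTRs of Klf4, Egr1, Egr2, Egr3 and Ier2. The motif was thus in 5 of 10 members, beside 28.9% of 11715 protein-coding genes with a 3′ UTR, and at least 2 motifs were in 3 members, beside 9.98%. Per kb of 3′ UTR there were 0.813 motifs over the members and 0.290 over all these genes. The members are also short genes, with a median span of 5243 bp and a median of 2 exons, beside 24706 bp and 9 exons over the 11890 protein-coding genes tested. In GRCm38, Klf6 lies on chromosome 13 from 5861482 to 5870394, Ier3 on chromosome 17 from 35821684 to 35822923, and Ier2 on chromosome 8 from 84661331 to 84662852. Klf4 lies on chromosome 4 from 55527143 to 55532466 and Klf10 on chromosome 15 from 38291463 to 38300706. The longest member spans 9244 bp, and 21.6% of those protein-coding genes are no longer than that.

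Library totals ran from 15317003 to 18466972 counts, so that 3 counts, the limit that a count of 0 allows, correspond to 0.162 to 0.196 CPM. Levels below are CPM (counts scaled to a common library size) after TMM scaling. Calls were made by the quasi-likelihood test of edgeR, with p-values adjusted over all 15237 genes tested and a threshold of 0.05. IFNγ responses were present in the treated libraries: Irf1, Socs1 and Nampt rose in IFNγ against media by log2 fold changes of 5.51, 6.44 and 1.48, and all 3 rose in the combined group as well. The 7 melanocyte markers were high in every library (Tyrp1 averaged 7008 CPM, Pmel 3772 CPM and Mlana 885 CPM). Their sum was 14982 to 17078 CPM in the combined group, 15538 to 17187 CPM with IFNγ and 16881 to 19023 CPM in media. Of 6 leukocyte markers 3 had counts in every library (Cd68 at 3.08 to 11.3 CPM, Lyz2 and Cd79a below 1 CPM), Ptprc and Itgam were at 0, and the sum was 4.98 to 9.78, 3.91 to 10.5 and 4.18 to 12.2 CPM in the 3 groups in that order. Of 8 fibroblast, endothelial and keratinocyte markers 4 had counts in every library (Pdgfra at up to 7.29 CPM, Col1a2 at up to 6.57 CPM, Col1a1 and Pecam1 below 1 CPM), Cdh5, Krt5 and Krt14 were at 0, and the sum was 3.97 to 10.1, 3.49 to 8.77 and 7.46 to 14.8 CPM. Mitf, the melanocyte master regulator, fell after IFNγ (-1.27, adjusted p = 7.73e-04), as did the low fibroblast marker Col1a2 (-1.69, adjusted p = 0.00952). Mitf was the 1 melanocyte marker of 7 lower without the block in each comparison with media. With the block 4 of 7 were lower in the combined group (Mitf, Tyr at -0.47, Sox10 at -0.26 and Dct at -0.22) and 3 of 7 after IFNγ (Mitf, Tyr at -0.33 and Sox10 at -0.30). Over all genes 7.61% and 6.14% were lower in these 2 comparisons with the block, and 0.597% and 0.499% without it. The part of these markers in the results below was not tested. In a bulk library fewer cells of a type and less RNA per cell cannot be told apart. Libraries with the same number resembled each other across genes, so the value from the fit that holds the number constant, called the replicate block below, is given where it changes a call.

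Divided by the length of the exons, which makes genes comparable, the members spanned a wide range of levels. In media Klf6 was highest at 32.9 ± 3.72 CPM per kb (SD, n = 3), followed by Ier3 at 25.7 ± 5.28 CPM per kb, and the ranges of these neighbours overlapped. Ier2 had 11.8 ± 1.95 CPM per kb and Klf10 had 7.32 ± 0.377 CPM per kb, and their ranges did not overlap. Zfp36 was below these at 4.09 ± 0.699 CPM per kb in media. Klf4 with 1.45, Klf2 with 1.21 and Egr1 with 0.613 CPM per kb overlapped one another, and Egr2 and Egr3 were below 0.1 in every media library. In the IFNγ groups Zfp36 stood in the third place, at 16.8 ± 4.97 CPM per kb with IFNγ plus FK866 and 18.7 ± 4.77 CPM per kb with IFNγ, above Ier2 in every library of those groups. These places depend on the length used for Zfp36, because the GENCODE exons of Zfp36 together cover its whole span of 3470 bp, whereas 1765 bp of its longest transcript lie after the RefSeq start. With that length, chosen after seeing the data, Zfp36 had 33.1 CPM per kb with IFNγ plus FK866, 36.8 with IFNγ and 8.04 in media. Its range of 6.46 to 8.89 in media overlapped that of Klf10. In both IFNγ groups its mean lay above that of Ier3 (29.2 with IFNγ plus FK866 and 32.9 with IFNγ). Its ranges there overlapped those of both Ier3 and Klf6.

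**Figure D1:**
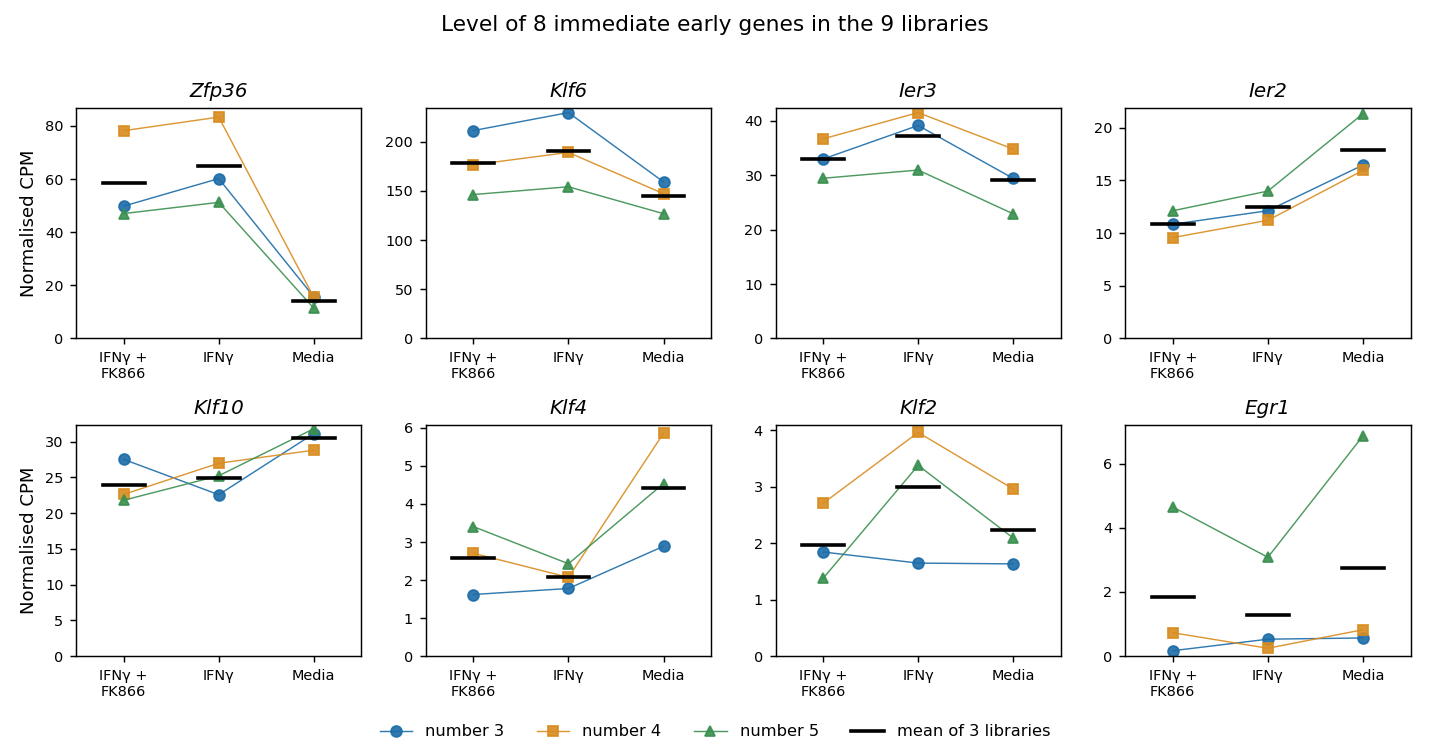
Level of the 8 tested members in every library, as normalised CPM on linear axes that start at 0, with IFNγ plus FK866 on the left, IFNγ in the middle and media on the right. Symbols and thin lines mark the number in the library's title and the black bars are means of 3 libraries: Zfp36 in both IFNγ groups lies between 47.0 and 83.3 CPM, above its 3 media libraries, and Egr1 is high in the number 5 library of each group.

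Setting IFNγ against media asks which of these genes differ after 6 h of the cytokine. No earlier time was measured, so a response that had come and gone by 6 h would not be seen. Zfp36 rose, Klf6 and Ier3 had slightly higher levels, and Klf4 and Ier2 had lower levels. Without the block, 1 of the 8 tested members was called, Zfp36, against a background of 2.80% of all genes called higher and 0.499% called lower. With the replicate block 3 of 8 were called higher and 2 of 8 lower, against 8.12% and 6.14% of all genes. The median log2 fold change of the 8 tested members was 0.03 without the block, beside -0.01 over all genes tested, with 4 of the 8 above 0 and 4 below it.

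Zfp36, the mRNA decay factor, had 60.2, 83.3 and 51.2 CPM in the IFNγ libraries numbered 3, 4 and 5, against 15.7, 15.5 and 11.4 CPM in the media libraries. Every IFNγ library was above every media library, and the number 4 library was the highest of the IFNγ group. The rise was 4.57-fold (log2 fold change 2.19, standard error 0.25, adjusted p = 7.66e-04) and Zfp36 was called in every alternative fit. An antisense gene, Gm44710, overlaps Zfp36 and has 55 counts over all libraries; the strand setting of the counting is not given in the sources used here, so reads of the 2 genes cannot be told apart. Zfp36 lies on chromosome 7 from 28376784 to 28380253 in GRCm38 on the minus strand, is protein-coding, and carries the GAS match shown above and 3 TATTTAT motifs, 2 of them in the window shown.

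Klf6, a widely expressed KLF factor and growth inhibitor, had 229, 189 and 154 CPM in the IFNγ libraries 3, 4 and 5, against 159, 147 and 127 CPM in the media libraries. The groups overlapped, because the number 5 library with IFNγ lay below the number 3 library in media, yet the IFNγ library was higher at each number. The log2 fold change was 0.40 (standard error 0.18, adjusted p = 0.473) without the block. With the block it was 0.39 (standard error 0.06, adjusted p = 9.15e-05).

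Ier3, which encodes a stress-inducible regulator of cell survival, had 39.2, 41.5 and 31.0 CPM with IFNγ and 29.4, 34.8 and 22.9 CPM in media. Here too the groups overlapped and the IFNγ library was higher at all 3 numbers. Its log2 fold change was 0.36 (adjusted p = 0.601) without the block, and with the block 0.36 with a standard error of 0.08 (adjusted p = 0.00263). Both Klf6 and Ier3 carry TATTTAT motifs, as do Klf2 and Klf10, which were not called in the blocked fit over all libraries.

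Ier2, a nuclear protein induced by growth factors, had 12.1, 11.2 and 14.0 CPM in the IFNγ libraries, against 16.4, 15.9 and 21.3 CPM in the media libraries. All IFNγ libraries lay below all media libraries. The log2 fold change of -0.53 (standard error 0.17) gave an adjusted p of 0.209 without the block, and -0.52 (standard error 0.11) gave 0.00143 with it.

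Klf4, known as a pluripotency and differentiation factor, had 1.78, 2.07 and 2.43 CPM with IFNγ, against 2.89, 5.86 and 4.54 CPM in media. The groups did not overlap, although the counts behind these levels were small, 102 in all with IFNγ and 229 in media. The log2 fold change was -1.08 (standard error 0.35, adjusted p = 0.207) without the block and -1.06 (standard error 0.25, adjusted p = 0.00491) with it. This call rests on the number 4 libraries: without them the blocked value was -0.81 with an adjusted p of 0.217.

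Klf10, an early gene of TGF-beta signalling, had 22.6, 27.0 and 25.2 CPM with IFNγ and 31.1, 28.8 and 31.8 CPM in media. These groups did not overlap, but the log2 fold change of -0.29 was not called with the block (adjusted p = 0.0576) or without it (0.478). It passed with the block when the number 4 libraries were left out (adjusted p = 0.0481). Klf2, best known as a quiescence factor of endothelial cells and lymphocytes, had 1.65, 3.96 and 3.38 CPM with IFNγ, against 1.63, 2.96 and 2.09 CPM in media, and was not called (blocked log2 fold change 0.42, 95% interval -0.17 to 1.00).

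Among the EGR genes only Egr1, the prototype serum response gene, was abundant enough to pass the filter. It had 0.53, 0.24 and 3.08 CPM with IFNγ and 0.56, 0.82 and 6.86 CPM in media, so the number 5 library was by far the highest in both groups. The log2 fold change was -1.08 without the block (standard error 1.28, adjusted p = 1.00) and -1.03 with it (standard error 0.39, adjusted p = 0.0885). Without the number 3 libraries the blocked value of -1.24 was called (adjusted p = 0.0147). Egr2, a regulator of myelination and T cell tolerance, had 0, 1 and 11 counts with IFNγ and 2, 4 and 4 counts in media. Egr3 had 0 counts in all 3 IFNγ libraries and 3, 2 and 1 counts in media, which are at or under the limit of 3 counts in each library, so no fold is given.

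IFNγ plus FK866 was compared with media as well; this comparison shares its media libraries with the preceding one. Zfp36 had 49.8, 78.2 and 47.0 CPM in the combined group, against 15.7, 15.5 and 11.4 CPM in media, without overlap. Its log2 fold change was 2.04 (standard error 0.25, adjusted p = 0.00126), and it was called in every alternative fit. Without the block it was the 1 member of 8 called, against 2.76% of all genes higher and 0.597% lower. With the block 2 of 8 members were called higher and 3 lower, against 8.53% and 7.61% of all genes.

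Ier2 had 10.8, 9.57 and 12.1 CPM with IFNγ plus FK866, against 16.4, 15.9 and 21.3 CPM in media, again without overlap. Its log2 fold change of -0.72 (standard error 0.17) was at the edge of the threshold without the block (adjusted p = 0.0552), where DESeq2 gave 0.00509, and was called with the block (adjusted p = 4.57e-05). Klf10 had 27.5, 22.6 and 21.8 CPM in the combined group, below all media libraries at 31.1, 28.8 and 31.8 CPM. It had a log2 fold change of -0.35 and was called with the block only (adjusted p = 0.018), a call lost without the number 4 libraries (0.0988) or the number 5 libraries (0.243).

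Klf4 had 1.62, 2.704 and 3.40 CPM in the combined group, against 2.89, 5.86 and 4.54 CPM in media, and the groups overlapped. With the block its log2 fold change was -0.79 (standard error 0.24, adjusted p = 0.029), while DESeq2 with the same block gave an adjusted p of 0.0702. The call of Klf4 was also lost without the number 4 libraries (-0.59, adjusted p = 0.414) or the number 5 libraries (-0.98, adjusted p = 0.0551). Klf6 had 211, 176 and 146 CPM, against 159, 147 and 127 CPM in media, and was called with the block at 0.29 (adjusted p = 0.00189). Ier3 had 33.0, 36.7 and 29.5 CPM in the combined group and was not called against media even with the block (log2 fold change 0.19, adjusted p = 0.119). Klf2 with 1.84, 2.704 and 1.38 CPM and Egr1 with 0.17, 0.73 and 4.65 CPM were not called in this comparison either.

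**Figure D2:**
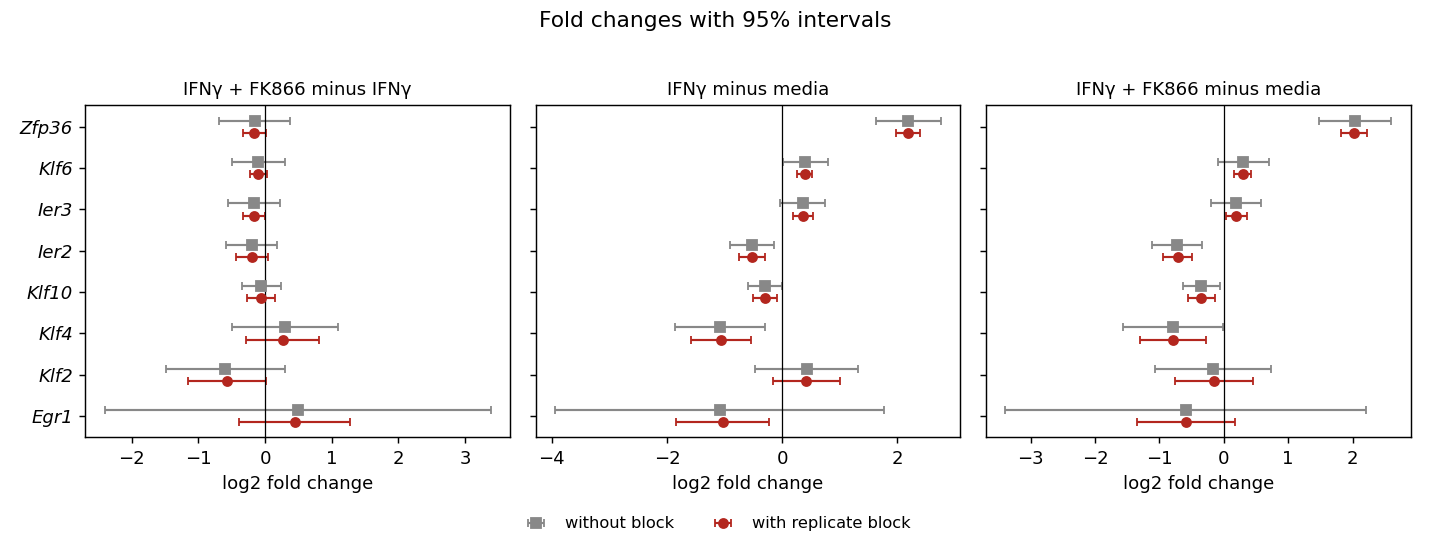
Log2 fold change (x axis, scaled separately in each panel) of the 8 tested members in the 3 comparisons, with 95% intervals from edgeR. Grey squares are the fit without the block and red circles the fit with the replicate block: Zfp36 lies near 2 in both comparisons with media, and the intervals narrow most for Egr1, whose standard error against media is 1.28 without and 0.39 with the block in the IFNγ comparison.

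IFNγ plus FK866 was set against IFNγ to ask what FK866 adds to the cytokine. RNA counts do not show whether NAMPT was blocked in these cells by 6 h. No member was called in any fit, and the members with an unadjusted p below 0.05 numbered 0 without the block and 1 with it. Over all genes 0% were called without the block (88 genes had an unadjusted p below 0.05 with edgeR, 61 with DESeq2 and 85 with limma-voom, and DESeq2 and limma-voom called 0 genes as well) and 0.0197%, or 3 genes, with it. Zfp36 was lower in the combined library at each number, by log2 differences of -0.27, -0.09 and -0.12, and its blocked log2 fold change was -0.16 with a 95% interval from -0.33 to 0.02. Klf6 was also lower at each number (-0.12, -0.10 and -0.08), with a blocked interval from -0.23 to 0.03. For Ier3 the blocked value was -0.17, with an interval from -0.33 to -0.004 and an unadjusted p of 0.0452, but the adjusted p was 0.987. With the block Ier2 had -0.20 (-0.43 to 0.04) and Klf10 -0.06 (-0.27 to 0.15). Without the block the intervals of these 5 genes were wider. They were -0.68 to 0.38 for Zfp36, -0.49 to 0.29 for Klf6 and -0.56 to 0.22 for Ier3. For Ier2 the interval was -0.58 to 0.19 and for Klf10 -0.35 to 0.24. For the low genes the blocked intervals are wide as well: Klf2 had -0.57 (-1.16 to 0.02), Klf4 had 0.27 (-0.28 to 0.82) and Egr1 had 0.44 (-0.39 to 1.28). Egr2 had 3, 1 and 5 counts and Egr3 had 2, 2 and 1 counts in the combined group. The median over the 8 tested members was -0.13, beside -0.01 over all genes tested.

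The number in the titles was compared across the treatments, since each number has 1 library of each group. Of the 8 tested members 7 were called for any difference among the numbers, and 51.8% of all genes were. Egr1, the member with the largest difference, had 0.168, 0.728 and 4.65 CPM in the combined libraries 3, 4 and 5, 0.527, 0.244 and 3.08 CPM with IFNγ, and 0.565, 0.822 and 6.86 CPM in media. Every number 5 library was above every library of the other numbers, and the total was 20 counts over the number 3 libraries, 33 over number 4 and 238 over number 5. The log2 difference was -3.52 (standard error 0.39) for number 3 minus 5 and -2.99 (standard error 0.36) for number 4 minus 5, with adjusted p-values of 4.71e-07 and 3.21e-06. Number 3 minus 4 was -0.53 and not called (adjusted p = 0.462). Over all genes 31.0% were called between numbers 3 and 4, 42.0% between 3 and 5, and 31.1% between 4 and 5. Other measures moved with the number as well. Rn7sk, Rpph1 and an rRNA gene took 4.11% to 4.48% of the number 5 libraries, above the 2.94% to 3.90% of all others, and mitochondrial genes took 3.66% to 4.05% of the number 4 libraries, below the others. Among the numbers 5 of 7 melanocyte markers were called, beside 51.8% of all genes, with Tyr at an adjusted p of 7.76e-14. So were Cd68, the 1 leukocyte marker tested, and Pdgfra (adjusted p = 9.15e-08), 1 of 2 tested fibroblast, endothelial and keratinocyte markers. In numbers 3, 4 and 5 the melanocyte sums were 17078 to 18025, 14982 to 16881 and 15184 to 19023 CPM. The leukocyte sums were 7.11 to 9.27, 9.78 to 12.2 and 3.91 to 4.98 CPM. Those of the fibroblast, endothelial and keratinocyte list were 3.49 to 7.6, 8.77 to 14.8 and 4.50 to 7.46 CPM. The part of these measures in the differences of the members was not tested.

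Klf6 ran the other way, highest in number 3 and lowest in number 5 within each treatment. The log2 differences were 0.22 for number 3 minus 4, 0.48 for 3 minus 5 and 0.26 for 4 minus 5, all called. Zfp36 was highest in number 4 among the IFNγ-treated libraries, with 4 minus 5 at 0.66 and 3 minus 4 at -0.43, both called, while its media libraries 3 and 4 were nearly level at 15.7 and 15.5 CPM. Ier3 was lowest in number 5 in every group (4 minus 5 at 0.45, 3 minus 5 at 0.29, both called). Ier2 was highest in number 5 in every group, and its 4 minus 5 difference of -0.36 was called (adjusted p = 0.0149).

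Klf2 was lower in number 3 than in number 4 by 0.87 on the log2 scale (value -0.87, adjusted p = 0.0236), and Klf4 was lower in number 3 than in both other numbers (-0.70 against 4 and -0.73 against 5). For Ier2, Klf4 and Klf2 the adjusted p over all 3 numbers was 0.0217, 0.0362 and 0.0377, and DESeq2 called none of these genes (0.0753, 0.0895 and 0.0923). The call of Ier2 was also lost with library totals alone (adjusted p = 0.0732) and without combined library 4, IFNγ library 4 or 5, or media library 4 or 5 (adjusted p up to 0.151). That of Klf4 was lost without combined library 3, 4 or 5, IFNγ library 5, or media library 3 or 4 (up to 0.152), and that of Klf2 without combined library 4, IFNγ library 3 or 4, or media library 3 or 4 (up to 0.173). Klf10 was the member with no call among the numbers (adjusted p = 0.866), its means being 27.1, 26.1 and 26.3 CPM in numbers 3, 4 and 5.

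**Figure D3:**
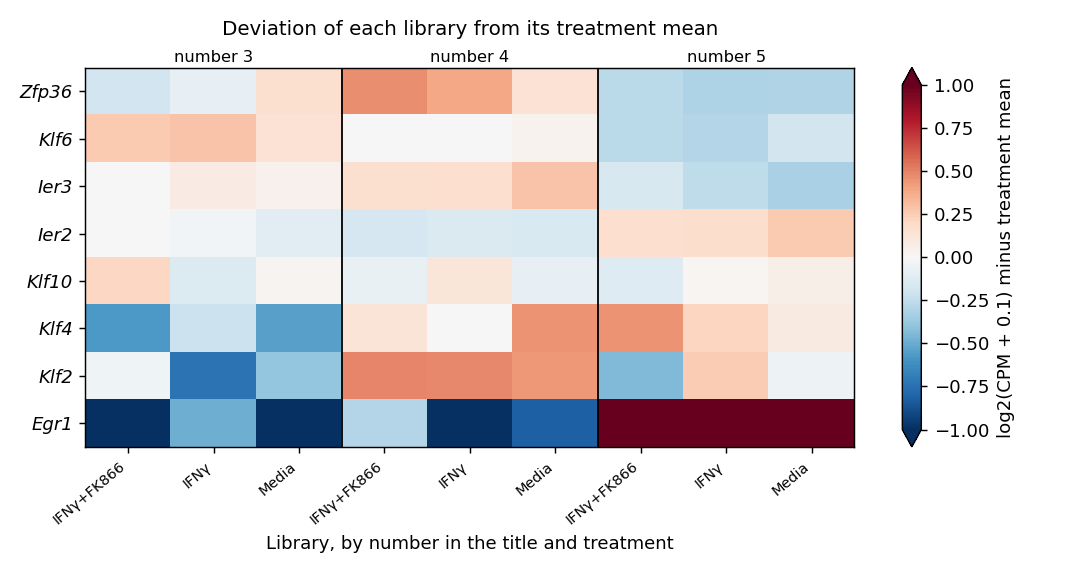
Deviation of each library from the mean of its treatment, as log2(CPM + 0.1), for the 8 tested members (rows), with the libraries of numbers 3, 4 and 5 side by side and, within each number, IFNγ plus FK866, IFNγ and media from left to right. Colours are capped at 1 in either direction: Egr1 is above its mean in the 3 libraries of number 5, and Klf6 is above its mean in the 3 of number 3 and below it in the 3 of number 5.

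Pearson correlations of log2 CPM over the 9 libraries describe which genes followed the members most closely among genes with a mean of at least 5 CPM. They mix treatment and number, and the points share both. Zfp36 was matched most closely by Gnb4 (r = 0.991), Gbp5 (0.989) and Pikfyve (0.988). Klf6 was matched by Tgif1 (0.986) and Akap6 (0.985), and Egr1 by Dcun1d1 (0.986), Scd1 (0.971) and Cdk8 (0.967). Ier2 followed Traf4 (0.986), Apold1 (0.974) and Dusp7 (0.969), and Klf10 followed Trp53bp2 (0.934), Tram2 (0.931) and Spred2 (0.927). The nearest genes were Mvp, Hdhd5 and Col12a1 for Ier3 (0.967, 0.959 and 0.952), Shroom4, Faap100 and Zfp930 for Klf4 (0.966, 0.958 and 0.949), and Tmem243, Cct4 and Mbd1 for Klf2 (0.959, 0.912 and 0.911). Among the members themselves, Zfp36 and Ier2 were the most opposed (r = -0.920), while Klf6 and Ier3 had r = 0.759 and Klf4 and Klf6 had r = -0.853.

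Relatives of the members were read from lists of their families. Of 13 other KLF genes 10 were tested and none was called after IFNγ against media without the block (3 had an unadjusted p below 0.05 with edgeR). With it 3 of 10 were lower and 0 higher, beside 6.14% and 8.12% of all genes. Klf15, a glucocorticoid-responsive metabolic regulator, was at -1.12 (standard error 0.13, adjusted p = 1.15e-06). Klf11, a paralogue of Klf10, was at -0.90 (adjusted p = 0.00427) and Klf12 at -0.62 (adjusted p = 0.00568). Klf15 had 8.43, 7.49 and 17.9 CPM with IFNγ, against 19.6, 20.0 and 31.5 CPM in media, so that the highest IFNγ library lay just below the lowest media library. The list's median log2 fold change with the block was -0.16, beside -0.01 over all genes tested. In the combined group against media Klf15 (-1.14), Klf11 (-0.62) and Klf13 (-0.21) were lower with the block, beside 7.61% of all genes. Among the numbers 7 of 10 were called, beside 51.8% of all genes: Klf5 was lower in number 3 than in number 4 by a difference of -1.99 and Klf9 was higher in number 3 than in number 4 by 1.13.

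Of the EGR corepressors, Nab2 had 21.7, 20.2 and 20.0 CPM with IFNγ, against 13.5, 14.7 and 13.3 CPM in media. Its log2 fold change of 0.57 passed with the block (adjusted p = 7.33e-04). In the combined group Nab2 rose without the block as well (0.71, adjusted p = 0.0254). Nab1 was not called after IFNγ (blocked value -0.04, adjusted p = 0.807). Egr4 had 0 counts in all libraries, and Wt1, which recognises similar DNA, was not tested.

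The relatives of ZFP36 moved in different directions. Zfp36l1 had 130, 154 and 124 CPM with IFNγ, against 74.2, 82.1 and 91.2 CPM in media, a called rise without the block of 0.72 (standard error 0.12, adjusted p = 0.00919). Zfp36l2 had 37.1, 40.5 and 50.7 CPM with IFNγ, against 51.4, 64.6 and 76.7 CPM in media, and was lower with the block at -0.58 (adjusted p = 1.52e-05). Both patterns were present in the combined group, at 0.74 for Zfp36l1 without the block and -0.56 for Zfp36l2 with it. Of the IER relatives Ier5 and Ier5l neither was called after IFNγ, and Ier5 was lower in the combined group than in media with the block (-0.56, adjusted p = 0.0228).

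**Figure D4:**
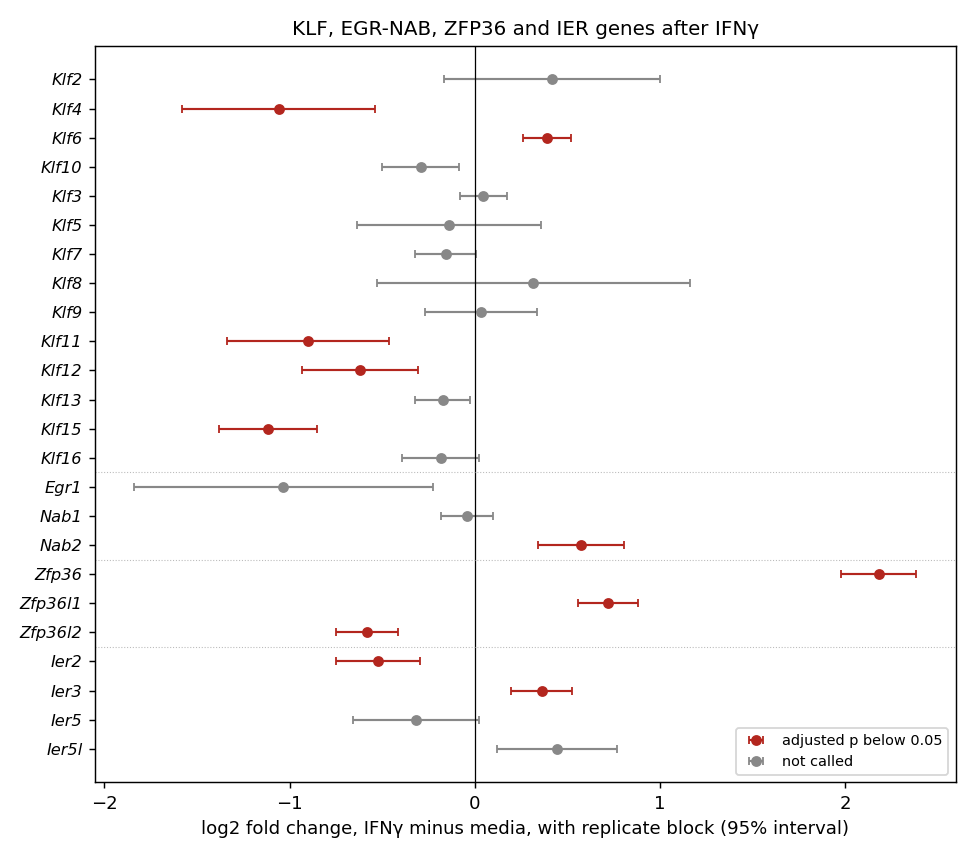
Log2 fold change of IFNγ minus media with the replicate block, with 95% intervals, for the tested members and relatives of the KLF, EGR and NAB, ZFP36, and IER families from top to bottom. Red marks an adjusted p below 0.05: Zfp36 at 2.18 and Zfp36l1 at 0.72 lie to the right, and Zfp36l2 at -0.58, Klf15 at -1.12 and Klf4 at -1.06 to the left.

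Among 12 partners of AU-rich mRNA decay, Dcp2, the decapping enzyme, rose after IFNγ without the block (0.88, standard error 0.10, adjusted p = 7.96e-04). Dcp2 averaged 99.7 ± 7.99 CPM with IFNγ and 54.1 ± 1.84 CPM in media (SD, n = 3 each). Xrn1, the exonuclease that degrades decapped mRNA, was higher with the block (0.45, adjusted p = 1.65e-05). Thus 1 of 12 partners was called higher without the block and 2 of 12 with it, beside 2.80% and 8.12% of all genes. None was called lower in either fit, beside 0.499% and 6.14% of all genes. The median of the 12 partners without the block was -0.01, the same as over all genes tested.

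Of 14 mRNAs reported as ZFP36 targets 9 were tested; Csf2, Il10 and Ptgs2 had 0 counts in all libraries, and Tnf had at most 7 counts in any library. Irf1 (5.51) and the kinase gene Pim1 (0.97) rose after IFNγ without the block and no gene of this list was called lower. Over all genes 2.80% were called higher and 0.499% lower in that fit. With the block 2 were higher and 4 lower, beside 8.12% and 6.14% of all genes. The lower ones were Ccnd1 (-0.43), the polo-like kinase gene Plk3 (-0.81), Myc (-0.66) and the phosphatase gene Dusp1 (-0.43). The list's median was -0.24 without the block. Irf1 was already used above to check the IFNγ treatment, so its call in this list is no separate evidence. Pim1, Plk3, Myc and Dusp1 are also in the list of further immediate early genes, so their calls are counted again below.

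AP-1 genes and other immediate early genes were set beside the members as the same class of response. Over all genes 2.80% were called higher and 0.499% lower after IFNγ without the block, and 8.12% and 6.14% with it. In the AP-1 list 4 of 9 tested genes rose after IFNγ without the block, Atf3 (2.50), Batf3 (1.71), Jun (1.44) and Maff (1.12), and 0 fell; with the block 7 were higher, among them Fos (1.09), Fosl2 (1.21) and Junb (0.60), and Jund was lower (-0.25). Their median was 1.12 without the block, beside 0.03 for the members. In the list of further immediate early genes 4 of 22 rose, Csrnp1 (2.10), Gadd45b (1.05), Cebpb (1.01) and Pim1 (0.97), and the nuclear receptor gene Nr4a3 fell (-1.02, adjusted p = 6.45e-04). With the block 10 of the 22 were higher and 6 lower. In the combined group against media, without the block, 2 of 9 AP-1 genes rose (Atf3 at 2.28 and Jun at 1.35) and Fosb fell (-1.28). Of the further immediate early genes 3 of 22 rose (Csrnp1 at 1.93, Cebpb at 1.17 and Pim1 at 0.90) and 3 fell (Plk3 at -1.03, Trib1 at -1.03 and Nr4a3 at -0.97), beside 2.76% of all genes higher and 0.597% lower. Both comparisons share the media libraries, and the difference between their counts was not tested.

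Fos, classically induced together with Egr1, differed from it by number. Fos had 24.2, 19.9 and 10.5 CPM in the combined libraries 3, 4 and 5, 36.3, 21.7 and 12.5 CPM with IFNγ, and 16.9, 8.76 and 7.10 CPM in media, so number 5 was the lowest in every treatment, where Egr1 was highest. The log2 difference for number 3 minus 5 was 1.34 for Fos (adjusted p = 5.42e-08), against -3.52 for Egr1. Nr4a1 was like Egr1 in being highest in number 5 in every treatment (number 3 minus 5 at -0.86, adjusted p = 4.69e-07). For number 3 minus 5, 6 of 9 tested AP-1 genes were called higher and 0 lower. Of the 22 further immediate early genes tested 12 were called higher and 3 lower, beside 42.0% of all genes called in either direction.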

How the data were processed

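The submitters' processing notes name the tools cutadapt 1.16, STAR 2.7.6a, featureCounts 1.6.3 and DESeq2 1.30.1 and the builds GRCm38 and mm10. Roles, settings, strand mode and annotation release: not given in the sources used here. The authors deposited raw counts per Ensembl gene, whole numbers, 1 column per library. The series text speaks of 10x sequencing, but the table has no cell barcodes and was handled as bulk data. RNA is labelled polyA, while Rn7sk, Rpph1 and an rRNA gene took 2.94% to 4.48% of each library. Libraries of a group differed beyond counting noise (chi-square over its degrees of freedom 21.59 to 37.22), so none was merged.

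Symbols were matched for 55141 of 55487 genes, with GENCODE M21 coordinates. Counts were tested in R 4.3.3 with edgeR 4.0.16 (TMM, filterByExpr, quasi-likelihood F test) over all 9 libraries with 1 mean per group; the Benjamini-Hochberg adjustment ran over 15237 genes. Standard errors were derived from the F statistic. Alternatives were the number as a block, RLE factors, library totals alone, other filters, DESeq2 1.42.0, limma-voom 3.58.1, 2 groups only and leaving out each library; the block with DESeq2 and the block without each number were chosen after seeing the data. The fits were tested on simulated data. Counting limits cover counting error only.

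The numbers 3, 4 and 5 pair the libraries, from the titles together with the data: deviations from group means correlated by 0.555 to 0.728 over 9 same-number pairs and by -0.477 to -0.112 over 18 others. Deviations of a group cancel out for each gene. Positive values within numbers thus go with negative ones between numbers by construction, and the 18 others are no separate evidence. Differences between numbers were tested in the fit with the block.

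The members and the 15 other lists were chosen with earlier results of these data known, and the motif TATTTAT was chosen after seeing the data. Named were all members, relatives called with or without the block, the genes of the treatment check, and the 3 genes closest to each member, with 2 genes of this rule not reported here; Srf, Nab1, Nr4a1, Klf5, Klf9 and the genes with 0 or few counts were named outside this rule after their values were seen. In the lists, Ccn1, Ccn2, Mrtfa and Mrtfb replace the older symbols Cyr61, Ctgf, Mkl1 and Mkl2.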

Additional observations from a re-analysis of the deposited data

How the results depend on the processing

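The rise of Zfp36 against media was called in every alternative, at 1.97 to 2.34 without the block after IFNγ and 1.77 to 2.17 in the combined group. Of 504 alternative values of tested members in the 3 treatment comparisons, 452 kept their direction and side of the threshold, 39 gained a call and 13 changed sign. With the replicate block 2173 genes were called for IFNγ against media (1838 with DESeq2; 1883, 1402 and 1830 without number 3, 4 and 5), 2459 for the combined group against media (2025; 2602, 1398 and 1889) and 3 against IFNγ (1; 8, 1 and 3). Members called with the block were 5 for IFNγ (5 with DESeq2; 6, 5 and 5 without number 3, 4 and 5) and 5 for the combined group (4; 5, 3 and 3). Without the block DESeq2 called 757 and 775 genes against media; library totals alone, the filter of 1 CPM in 3 libraries and DESeq2 each called 2 members in the combined group, the added member being Ier2. Leaving out single libraries gave 314 to 487 genes for IFNγ and 322 to 479 for the combined group against media. For the number in the titles, 7 members and 7895 genes were called, against 4 members and 6764 genes with DESeq2, and 4 to 6 members and 6536 to 7964 genes without a library; library totals alone lost the call of Ier2. With the exon length from the RefSeq start, an alternative added after seeing the data, the level per kb of Zfp36 moved in all 3 groups. Signs changed for Egr1 on leaving out a number 5 library: without that of media, 0.89 after IFNγ and 1.38 in the combined group; without that of the combined group, -1.50 against IFNγ (range over left-out libraries -1.50 to 2.22 against IFNγ, -2.82 to 0.89 and -2.59 to 1.38 against media). Against IFNγ, Klf6 (-0.24 to 0.055), Klf10 (-0.17 to 0.0080, and 0.058 and 0.017 with the block without number 4 and 5) and Zfp36 (-0.42 to 0.067) changed sign, as did Klf2 in the combined group against media (-0.47 to 0.090, and 0.028 with the block without number 5). The causes were not tested. Members below about 5 CPM (Egr1, Klf2, Klf4) rest on few counts, and Egr2 and Egr3 did not pass the filter of the main fit. In the alternative without a filter Egr2 and Egr3 were tested on their few counts, and neither was called in any comparison.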

Other observations

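Regulators of immediate early genes were measured in the same libraries. As background, 2.80% of all genes were called higher and 0.499% lower after IFNγ without the block, and 8.12% and 6.14% with it. In the combined group against media 0.597% were lower without the block. Srf itself was not called after IFNγ, and of its 6-gene list Elk3 was lower (-0.68) and Elk4 higher (0.42) with the block only; in the combined group Elk3 fell without the block as well (-0.91, adjusted p = 0.0277). Of 10 genes of ERK feedback, Dusp6, an ERK phosphatase, rose (1.19, adjusted p = 0.0114) and Spred2, an inhibitor of RAS to RAF signalling, fell (-0.69, adjusted p = 0.0237) after IFNγ without the block. With the block 2 were higher and 5 lower, beside 8.12% and 6.14% of all genes, the lower ones including Spry2 (-0.67) and Spry4 (-0.93). Of 8 early TGF-beta genes none was called without the block (1 had an unadjusted p below 0.05 with edgeR), and with it Tgif1 (0.72) and Id2 (0.22) were higher and Id1 (-0.28) lower. Of the 8 heat shock genes tested none was called after IFNγ in either fit (0 had an unadjusted p below 0.05 with edgeR in either), with a median of -0.03 without the block and Hspa1b at 0.13.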
